A study of Homo sapiens with 8 samples.

Results

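The genes described here are 40 cytosolic and mitochondrial protein chaperones and their co-factors, read from RNA sequencing of multiple myeloma cell lines with or without forced expression of CTBP2. The members were named as a list of gene symbols, and all 40 of them were found among the 25906 genes measured. All 40 also passed a filter of at least 1 FPKM (fragments per kilobase of transcript, scaled to the library's total of fragments) in at least 2 libraries, which 12583 genes passed in all. The member nearest that limit was BAG2, with 1.52 to 4.60 FPKM over the 8 libraries. The genes fall into 10 of the HSP90 machine, 14 of the HSP70 and DNAJ system, 5 mitochondrial chaperones, 10 of the CCT ring and its prefoldin partner, and 1 regulator, HSF1. MM.1S and NCI-H929, both established human myeloma lines, were transduced with a lentiviral CTBP2 overexpression vector (CTBP2) or with the empty vector (EV) and harvested after 72 h. There were 2 libraries for each of the 4 combinations of line and vector, described by the submitters as biological duplicates, with no word on whether a duplicate was a separate transduction. Neither the promoter driving CTBP2 nor any selection of transduced cells is named in the labels, and 1 time point was sampled.

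Chaperones bind unfolded stretches of other proteins and release them for folding with the energy of ATP. In the cytosol, DNAJ proteins hand clients to HSP70, nucleotide exchange factors such as HSPH1 and the BAG proteins release them, and HSP90 with its co-chaperones completes the folding of kinases and steroid receptors. The CCT ring folds actin and tubulin delivered by prefoldin, and mitochondria carry their own HSP70, HSP60 and HSP90 relatives for imported proteins. HSF1 is the transcription factor that raises many of these genes when unfolded proteins build up. Myeloma cells are malignant plasma cells with a heavy load of secreted antibody to fold. CTBP2 is a co-repressor that is brought to DNA by other transcription factors.

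The vector gene was read first. Among CTBP2 libraries it reached 2145 FPKM in replicate 1 and 3427 FPKM in replicate 2 under the MM.1S label, and 5884 FPKM in replicate 1 and 1621 FPKM in replicate 2 under the NCI-H929 label. In the 4 EV libraries it was between 0.148 and 0.213 FPKM. Line genes went against the line label in both CTBP2 replicate 2 libraries. CTBP2 replicate 2 under the MM.1S label held 0.0582 FPKM of CCND2 and 22.2 FPKM of FGFR3, as in NCI-H929, while CTBP2 replicate 2 under the NCI-H929 label held 60.7 FPKM of CCND2 and 0.0399 FPKM of FGFR3, as in MM.1S. Every comparison of CTBP2 with EV is therefore given 3 ways: with the line as labelled, without those 2 libraries, and with the line read from expression (CCND2 above 10 FPKM as MM.1S, FGFR3 above 10 FPKM as NCI-H929). Below, a library is called MM.1S-type or NCI-H929-type by that rule. In each pair of CTBP2 values the replicate 1 library stands first and the library labelled with the other line second. Estimated depth was 16000000 to 21000000 fragments per library. All 8 plasma cell markers reached 1 FPKM, with sums of 1699.8 to 2518 FPKM in CTBP2 libraries against 2375 to 3469 FPKM in EV libraries, and none of the listed B cell, myeloid or fibroblast markers did. Of 3 T cell markers, CD3E did, and the list summed to 2.62 to 54.3 FPKM in CTBP2 libraries against 0.527 to 3.65 FPKM in EV libraries, while CD3D was listed at 0 in 2 CTBP2 and 3 EV libraries and CD2 in the 4 EV libraries. Of 3 epithelial markers EPCAM did, and that list summed to 1.08 to 1.62 FPKM with CTBP2 against 0.299 to 0.687 FPKM with EV. The part of these markers in the results was not tested.

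Promoter sequence was read from RefSeq (GRCh38.p14) for 35 of the 40 genes, over 250 bases before and 50 bases after 1 transcript start per gene. Genes with more transcripts, such as HSP90AA1 and DNAJB1 with 2 each, can have other starts. Motifs there were not sought, so a gene without a match may have one at another start. The deposited values were made on another build, GRCh37, so these coordinates serve only to show the sequences. The core of the heat shock element, the site that HSF1 binds, was searched on both strands as GAANNTTC and TTCNNGAA, which can overlap each other. It was present in 11 of 35 members (31.4%), against 13.5% of 35116 promoters of the same length. It was in 1 of 9 HSP90 machine promoters, 6 of 13 of the HSP70 and DNAJ system, 1 of 5 mitochondrial and 3 of 8 of the CCT ring and prefoldin. The E-box CACGTG, bound by MYC among other factors, was present in 3 of 35 members (8.57%), against 7.26% of all promoters. All 3 are mitochondrial, namely HSPA9, HSPD1 and HSPE1. HSPD1 and HSPE1 are neighbours that read away from each other, so their windows share 204 bases and a single E-box. Of all 40 genes, HSPD1 and HSPE1 had the lowest log2 fold changes given below for the line as labelled. Those of TRAP1, HSP90AA1 and TCP1, which had no E-box match in the window read, lay between HSPE1 and HSPA9. The part of the E-box in these changes was not tested. The stretch between the starts of HSPD1 and HSPE1 (chr2:197500275-197500378, + strand) is shown with the E-box in capitals. So are the 150 bases before the start of HSPA9 (chr5:138575402-138575551, − strand).
HSPD1-HSPE1: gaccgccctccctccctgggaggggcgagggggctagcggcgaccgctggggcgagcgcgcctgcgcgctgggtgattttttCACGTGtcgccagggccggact
HSPA9: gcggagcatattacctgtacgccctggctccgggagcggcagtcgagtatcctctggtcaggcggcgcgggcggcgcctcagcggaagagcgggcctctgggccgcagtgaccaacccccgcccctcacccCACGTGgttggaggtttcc
The next 4 stretches, each the 150 bases before a start, show the heat shock element in capitals where its matches lie within the stretch. CHORDC1 (chr11:90223050-90223199, − strand) and HSPA8 (chr11:123062137-123062286, − strand) fell with CTBP2 when the line was read from expression. HSPA1A (chr6:31815393-31815542, + strand) and HSPA1B (chr6:31827588-31827737, + strand) did not pass the test. These 4 do not stand for all 11 members with a match. With the line read, the 11 all fell except DNAJB6, HSPA1A and HSPA1B, against 31 of all 40 members and 16.7% of all genes tested.
CHORDC1: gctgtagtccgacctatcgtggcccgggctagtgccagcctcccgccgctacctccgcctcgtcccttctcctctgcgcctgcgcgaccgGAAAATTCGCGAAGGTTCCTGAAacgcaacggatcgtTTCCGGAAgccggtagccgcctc
HSPA8: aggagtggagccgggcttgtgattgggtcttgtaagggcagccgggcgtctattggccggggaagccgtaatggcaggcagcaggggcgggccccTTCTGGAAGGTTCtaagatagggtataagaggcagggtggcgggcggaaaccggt
HSPA1A: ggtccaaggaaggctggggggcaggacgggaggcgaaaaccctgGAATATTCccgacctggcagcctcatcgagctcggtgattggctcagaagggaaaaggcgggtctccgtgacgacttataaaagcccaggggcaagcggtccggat
HSPA1B: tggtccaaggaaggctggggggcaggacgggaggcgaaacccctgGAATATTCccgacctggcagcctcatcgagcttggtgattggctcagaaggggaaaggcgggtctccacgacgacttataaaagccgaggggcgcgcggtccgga
The last 2 are near-identical copies, with the same base at 277 of 299 compared positions of their windows (92.6%) when 1 window is moved by 1 base. A match to a motif describes these letters and says nothing of binding in these cells.

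CTBP2 against EV in both lines together was the first comparison, and most of these chaperone genes were lower with CTBP2. With the line as labelled, 6 of the 40 fell and none rose. They were AHSA1, the ATPase activator of HSP90, TRAP1, the mitochondrial HSP90, the CCT subunits TCP1, CCT6A and CCT8, and the prefoldin subunit PFDN6. The test was limma on log2(FPKM + 1) over all 12583 genes, with a Benjamini-Hochberg adjusted p under 0.05, and 1.81% of all genes were called lower by it. At an unadjusted p under 0.05, 24 members were lower and 0 higher, against 1506 of the 12583 genes tested lower at that threshold. Without the 2 CTBP2 replicate 2 libraries 28 of the 40 fell and none rose, against 13.0% of all genes called lower. With the line read from expression 31 fell and none rose, against 16.7% of all genes. The 6 and the 28 were all among the 31. In bulk RNA a lower level in every cell and fewer cells with a high level cannot be told apart.

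The raw values show the same without a fit. For 16 of 40 members all 4 CTBP2 libraries lay below all 4 EV libraries, against 7.45% of all genes tested. For 29 of 40 the CTBP2 libraries lay below the EV libraries within both lines as read from expression, against 19.9% of all genes. That was so for 8 of 10 HSP90 machine genes, 7 of 14 of the HSP70 and DNAJ system, 5 of 5 mitochondrial genes, 9 of 10 of the CCT ring and prefoldin, and not for HSF1. No member lay above EV in the same way by either count. The median log2 fold change over the 40 was -0.72 with the line as labelled, against 0.04 over all genes tested, and the fit with the line read gives the same estimates. It was -0.70 without the 2 CTBP2 replicate 2 libraries, against 0.01.

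**Figure D1:**
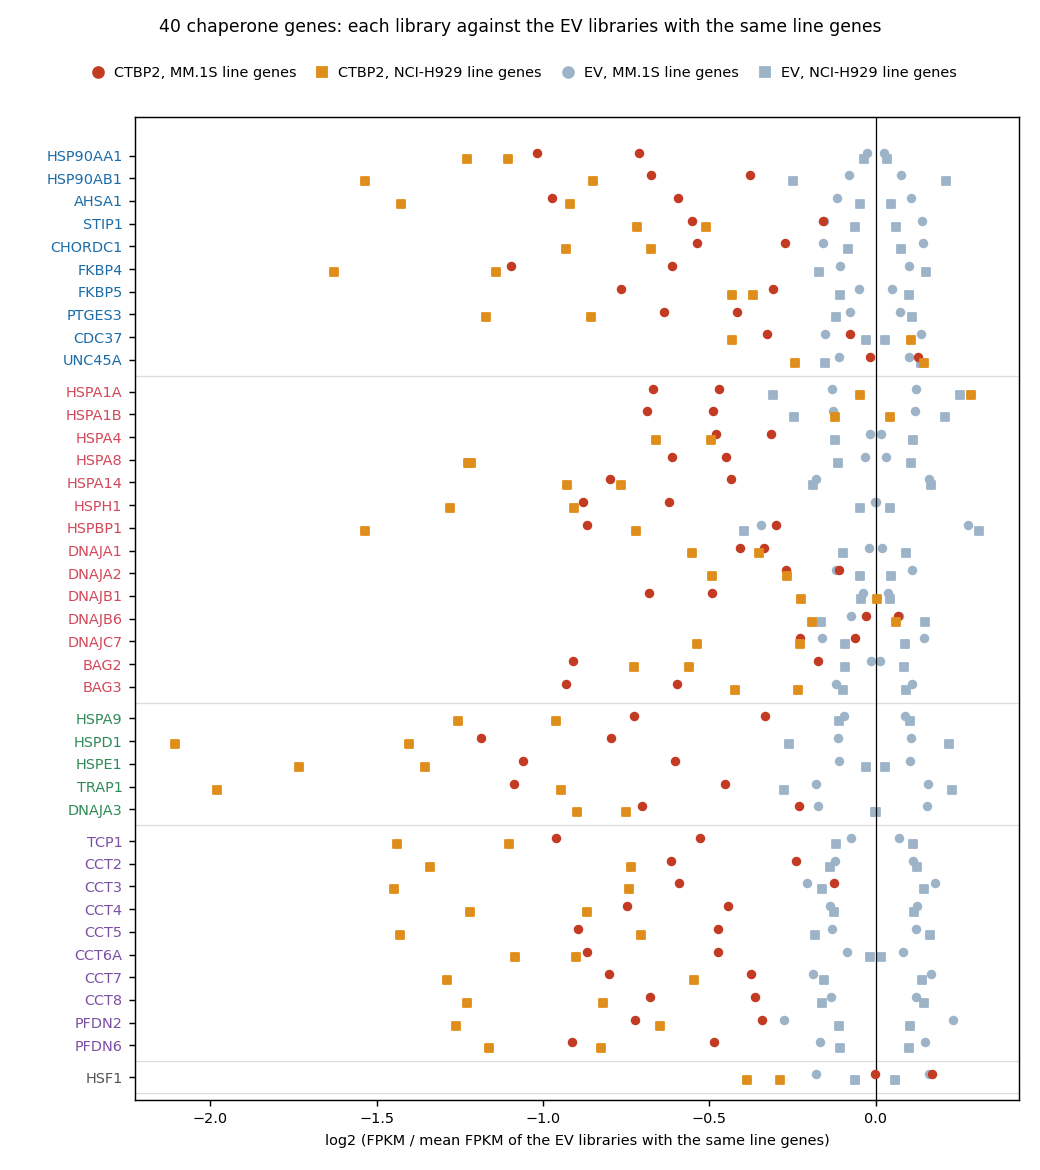
Log2 ratio of each library's FPKM to the mean FPKM of the EV libraries with the same line genes, for the 40 genes from top to bottom by role (gene names in blue, HSP90 machine; red, HSP70 and DNAJ; green, mitochondrial; purple, CCT ring and prefoldin; grey, HSF1). Red circles and orange squares are CTBP2 libraries and blue-grey symbols EV libraries. The CTBP2 libraries lie left of the EV libraries of their line for 29 of the 40 genes, and the 5 mitochondrial genes are all among them.

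HSP90 machine. Of the 10 genes, 1 fell with the line as labelled, 8 without the 2 CTBP2 replicate 2 libraries and 8 with the line read from expression. HSP90AA1, the stress-inducible cytosolic HSP90, had 98.9 and 122 FPKM in MM.1S-type CTBP2 libraries, against 197 and 204 FPKM in MM.1S-type EV libraries. It had 198 and 182 FPKM in NCI-H929-type CTBP2 libraries, against 436 and 415 FPKM in NCI-H929-type EV libraries. The groups did not overlap within a line, while across lines 1 NCI-H929-type CTBP2 library lay just above the lower MM.1S-type EV library. Its log2 fold change was -1.01 (SE 0.29, adjusted p = 0.0958 by limma) with the line as labelled, -1.06 (SE 0.14, adjusted p = 0.00573 by limma) without the 2 CTBP2 replicate 2 libraries and -1.01 (SE 0.14, adjusted p = 0.00294 by limma) with the line read. HSP90AB1, the constitutive and more abundant form, had 496 and 611 FPKM in MM.1S-type CTBP2 libraries against 751 and 835 FPKM in EV, and 369.7 and 230.0 FPKM in NCI-H929-type CTBP2 libraries against 772 and 560.4 FPKM in EV. It did not pass with the line as labelled (-0.85, adjusted p = 0.179 by limma) and passed with the line read (adjusted p = 0.0203 by limma), but in only 5 of 8 fits that left out 1 library.

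AHSA1 fell in all 3 fits. It had 55.1 and 71.6 FPKM in MM.1S-type CTBP2 libraries against 99.8 and 117 FPKM in EV, and 68.4 and 48.02 FPKM in NCI-H929-type CTBP2 libraries against 125 and 133 FPKM in EV. All 4 CTBP2 libraries were below all 4 EV libraries, with means of 60.8 ± 11.1 FPKM with CTBP2 and 119 ± 14.3 FPKM with EV (SD, n = 4 each). FKBP4, an immunophilin of HSP90's steroid receptor complexes, had the lowest log2 fold change of the group, -1.09 (SE 0.29). It had 42.3 and 59.2 FPKM in MM.1S-type CTBP2 libraries against 83.99 and 97.02 FPKM in EV, and 32.8 and 23.4 FPKM in NCI-H929-type CTBP2 libraries against 80.4 and 64.3 FPKM in EV. Its adjusted limma p was 0.0864 with the line as labelled and 0.00472 with the line read. PTGES3, the p23 co-chaperone that holds HSP90 in its client-bound state, had 177 and 205 FPKM in MM.1S-type CTBP2 libraries against 260.0 and 289 FPKM in EV, and 102 and 128 FPKM in NCI-H929-type CTBP2 libraries against 212 and 249 FPKM in EV. The 4 CTBP2 libraries again lay below the 4 EV libraries, with a log2 fold change of -0.76 and an adjusted limma p of 0.122 as labelled and 0.00873 with the line read. STIP1, the adaptor that joins HSP70 to HSP90, CHORDC1, an HSP90 co-chaperone, and FKBP5, a second immunophilin, had log2 fold changes of -0.48, -0.57 and -0.43 and passed without the 2 CTBP2 replicate 2 libraries and with the line read. CHORDC1 passed in 8 of the 8 fits with the line read that left out 1 library, FKBP5 in 4 and STIP1 in 2. CDC37, which brings kinases to HSP90, and UNC45A, a myosin chaperone, did not pass in any of the 3 fits, at -0.18 (SE 0.23) and 0.01 (SE 0.17), and CDC37 turned to 0.12 under equal totals. UNC45A turned below 0 in 4 of the 8 fits that left out 1 library as labelled.

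HSP70 and DNAJ. None of the 14 genes fell with the line as labelled by limma (4 at an unadjusted p under 0.05, where 1506 of the 12583 genes tested were lower), 5 fell without the 2 CTBP2 replicate 2 libraries and 8 with the line read from expression. HSPA8, the constitutive HSP70 and the most abundant of the 40, had 687 and 769 FPKM in MM.1S-type CTBP2 libraries, against 1027 and 1072 FPKM in MM.1S-type EV libraries. It had 725 and 729.7 FPKM in NCI-H929-type CTBP2 libraries, against 1825 and 1566 FPKM in NCI-H929-type EV libraries. The 4 CTBP2 libraries lay close together, at 728 ± 33.4 FPKM (SD, n = 4), and all below the EV libraries, at 1372 ± 388 FPKM (SD, n = 4). Its log2 fold change of -0.87 missed the threshold with the line as labelled (SE 0.18, adjusted p = 0.0522 by limma) and passed without the 2 CTBP2 replicate 2 libraries (adjusted p = 0.0144 by limma) and with the line read (adjusted p = 0.0116 by limma).

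HSPA1A and HSPA1B, the heat-inducible HSP70 genes, did not pass the test. HSPA1A had 15.1 and 17.3 FPKM in MM.1S-type CTBP2 libraries against 21.9 and 26.1 FPKM in EV, with no overlap, and 12.5 and 9.95 FPKM in NCI-H929-type CTBP2 libraries against 12.2 and 8.30 FPKM in EV, with overlap. HSPA1B had 26.1 and 29.96 FPKM in MM.1S-type CTBP2 libraries against 38.5 and 45.6 FPKM in EV, and 19.5 and 17.4 FPKM in NCI-H929-type CTBP2 libraries against 21.9 and 16.00 FPKM in EV. Neither passed in any of the 3 fits, at -0.20 (SE 0.33) and -0.29 (SE 0.32), and HSPA1A turned to 0.07 under equal totals. The ratio of HSPA1B to HSPA1A was 1.56 to 1.93 over the 8 libraries, and since the copies are nearly identical their reads may be split between them. DNAJB1, the J-domain partner that is induced together with them, had 34.7 and 39.5 FPKM in MM.1S-type CTBP2 libraries against 54.1 and 57.03 FPKM in EV, and 24.4 and 28.5 FPKM in NCI-H929-type CTBP2 libraries against 27.6 and 29.3 FPKM in EV. It was lower with CTBP2 in the MM.1S-type libraries without overlap, overlapped in the NCI-H929-type libraries, and did not pass (-0.34, adjusted p = 0.471 by limma as labelled and 0.0709 with the line read).

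HSPH1, an HSP110 that exchanges the nucleotide of HSP70, had 16.2 and 19.4 FPKM in MM.1S-type CTBP2 libraries against 29.8 and 29.8 FPKM in EV, and 7.03 and 9.10 FPKM in NCI-H929-type CTBP2 libraries against 16.5 and 17.6 FPKM in EV. HSPA4, of the same family, had 38.8 and 43.6 FPKM in MM.1S-type CTBP2 libraries against 53.5 and 54.8 FPKM in EV, and 42.7 and 47.9 FPKM in NCI-H929-type CTBP2 libraries against 61.9 and 72.9 FPKM in EV. HSPA14, a ribosome-associated HSP70, had 20.9 and 26.9 FPKM in MM.1S-type CTBP2 libraries against 32.1 and 40.6 FPKM in EV, and 16.1 and 14.4 FPKM in NCI-H929-type CTBP2 libraries against 30.8 and 24.04 FPKM in EV. All 3 genes were lower with CTBP2 within each line, at log2 fold changes of -0.86, -0.48 and -0.69. With the line read their adjusted limma p values were 0.00363, 0.0139 and 0.00843, and as labelled 0.189, 0.104 and 0.155. The exchange factors BAG2 (-0.42), BAG3 (-0.50) and HSPBP1 (-0.76) and the J-domain protein DNAJA1 (-0.41) passed with the line read, but in 1, 5, 3 and 5 of its 8 fits that left out 1 library. BAG2 alone among these 4 also passed without the 2 CTBP2 replicate 2 libraries. The J-domain proteins DNAJA2, DNAJB6 and DNAJC7 did not pass in any of the 3 fits, at -0.27, -0.02 and -0.25, and each turned above 0 under equal totals, to 0.02, 0.27 and 0.04.

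Mitochondrial chaperones. TRAP1 fell with the line as labelled, and all 5 genes fell without the 2 CTBP2 replicate 2 libraries and with the line read from expression. HSPD1, the HSP60 barrel of the matrix, had the lowest log2 fold change of all 40 genes. It had 208 and 272 FPKM in MM.1S-type CTBP2 libraries, against 436 and 508 FPKM in MM.1S-type EV libraries, and 174 and 107 FPKM in NCI-H929-type CTBP2 libraries, against 535 and 383 FPKM in NCI-H929-type EV libraries. All 4 CTBP2 libraries were below all 4 EV libraries, and the log2 fold change was -1.35 (SE 0.29, adjusted p = 0.0526 by limma) as labelled, -1.28 (SE 0.18, adjusted p = 0.00608 by limma) without the 2 CTBP2 replicate 2 libraries and -1.35 (SE 0.23, adjusted p = 0.00531 by limma) with the line read. HSPE1, the HSP10 lid of that barrel, whose promoter stretch with HSPD1 is printed above, had 121 and 165 FPKM in MM.1S-type CTBP2 libraries against 233 and 269.9 FPKM in EV, and 81.6 and 62.7 FPKM in NCI-H929-type CTBP2 libraries against 204 and 213 FPKM in EV. It too had no overlap between the 4 CTBP2 and the 4 EV libraries, with a log2 fold change of -1.18 (adjusted p = 0.0827 by limma as labelled and 0.00462 with the line read).

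TRAP1 had 41.5 and 64.4 FPKM in MM.1S-type CTBP2 libraries against 77.97 and 98.5 FPKM in EV, and 64.8 and 31.6 FPKM in NCI-H929-type CTBP2 libraries against 146 and 103 FPKM in EV. Its log2 fold change was -1.08 (SE 0.18, adjusted p = 0.0371 by limma) as labelled. DNAJA3, the J-domain partner of mitochondrial HSP70, had 29.8 and 41.4 FPKM in MM.1S-type CTBP2 libraries against 43.1 and 54.1 FPKM in EV, and 28.6 and 25.8 FPKM in NCI-H929-type CTBP2 libraries against 48.2 and 48.05 FPKM in EV. Both genes had all 4 CTBP2 libraries below all 4 EV libraries, and DNAJA3 stood at -0.62 with an adjusted limma p of 0.0884 as labelled and 0.0129 with the line read. HSPA9, mitochondrial HSP70 or mortalin, had 79.2 and 104 FPKM in MM.1S-type CTBP2 libraries against 123 and 139 FPKM in EV, and 147 and 120.0 FPKM in NCI-H929-type CTBP2 libraries against 308 and 265 FPKM in EV. For HSPA9 an NCI-H929-type CTBP2 library lay above MM.1S-type EV, so the groups overlapped across lines but not within them, and its log2 fold change was -0.81 (adjusted p = 0.104 by limma as labelled and 0.00938 with the line read). With the line read, all 5 mitochondrial genes passed in each of the 8 fits that left out 1 library.

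CCT ring and prefoldin. Of the 10 genes 4 fell with the line as labelled, and all 10 fell without the 2 CTBP2 replicate 2 libraries and with the line read from expression. TCP1, the first subunit of the ring, had 42.4 and 57.3 FPKM in MM.1S-type CTBP2 libraries, against 78.5 and 86.6 FPKM in MM.1S-type EV libraries, and 38.3 and 30.3 FPKM in NCI-H929-type CTBP2 libraries, against 88.8 and 75.6 FPKM in NCI-H929-type EV libraries. The means were 42.1 ± 11.3 FPKM with CTBP2 and 82.4 ± 6.32 FPKM with EV (SD, n = 4 each), and the log2 fold change of -0.99 (SE 0.20, adjusted p = 0.0468 by limma) was the lowest of the group. CCT6A had 74.3 and 97.5 FPKM in MM.1S-type CTBP2 libraries against 128 and 143 FPKM in EV, and 97.5 and 85.8 FPKM in NCI-H929-type CTBP2 libraries against 184 and 179.8 FPKM in EV. CCT8 had 119 and 147 FPKM in MM.1S-type CTBP2 libraries against 173 and 206 FPKM in EV, and 141 and 106 FPKM in NCI-H929-type CTBP2 libraries against 276 and 223 FPKM in EV. For these ring subunits no CTBP2 library reached an EV library. PFDN6, a prefoldin subunit, had 63.5 and 85.4 FPKM in MM.1S-type CTBP2 libraries against 107 and 133 FPKM in EV, and 70.6 and 55.96 FPKM in NCI-H929-type CTBP2 libraries against 134 and 116 FPKM in EV, again without overlap. Log2 fold changes as labelled were -0.82 for CCT6A, -0.76 for CCT8 and -0.83 for PFDN6, with adjusted limma p values of 0.0327, 0.042 and 0.044.

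The other ring subunits moved by similar amounts. Log2 fold changes as labelled were -0.72 for CCT2, -0.71 for CCT3, -0.80 for CCT4, -0.86 for CCT5 and -0.74 for CCT7, so the ring and prefoldin genes spanned only -0.99 to -0.71. Their adjusted limma p values were 0.0511, 0.185, 0.0522, 0.0683 and 0.0799 as labelled and 0.0208, 0.0449, 0.00744, 0.0116 and 0.0216 with the line read. CCT3 was the subunit whose groups overlapped within a line, with 211 and 291 FPKM in MM.1S-type CTBP2 libraries against 275 and 359 FPKM in EV, and it passed in 2 of the 8 fits with the line read that left out 1 library. PFDN2, the second prefoldin subunit of the list, had a log2 fold change of -0.73 (adjusted p = 0.226 by limma as labelled and 0.0215 with the line read).

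HSF1 itself did not pass in any of the 3 fits. It had 69.05 and 77.7 FPKM in MM.1S-type CTBP2 libraries against 61.04 and 77.2 FPKM in MM.1S-type EV, and 11.02 and 10.3 FPKM in NCI-H929-type CTBP2 libraries against 14.01 and 12.9 FPKM in NCI-H929-type EV. The MM.1S-type groups overlapped, and the NCI-H929-type CTBP2 libraries lay below their EV libraries. The log2 fold change was -0.11 with an SE of 0.85 (adjusted p = 0.967 by limma) as labelled and -0.11 with an SE of 0.13 (adjusted p = 0.533 by limma) with the line read. Its sign turned to 0.17 under equal totals.

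**Figure D2:**
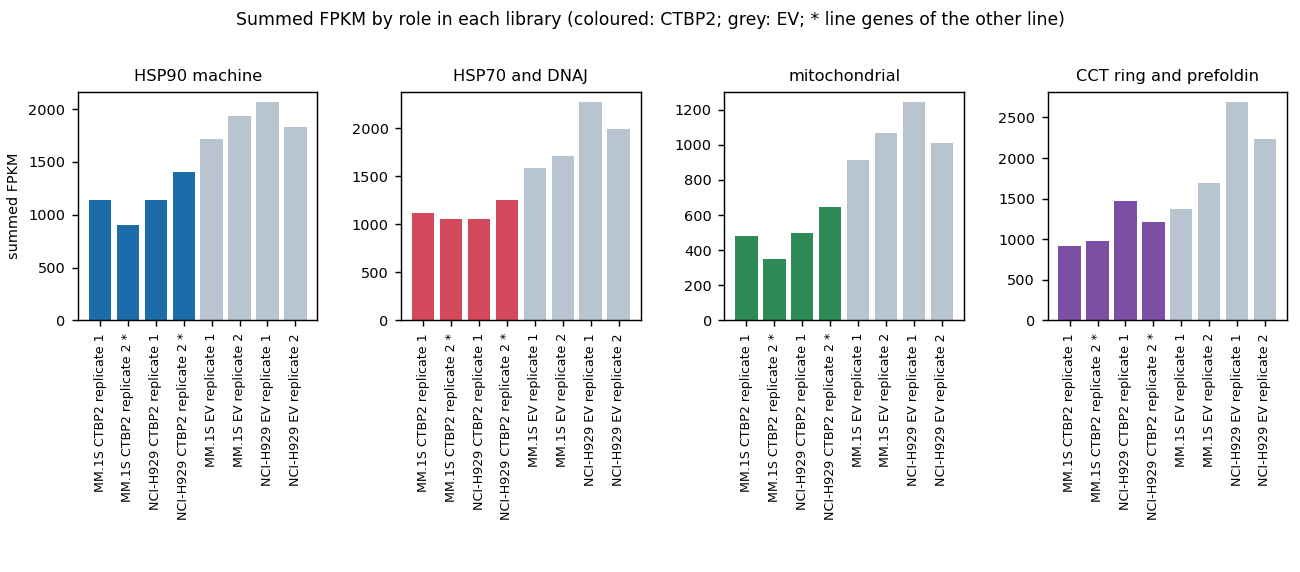
Summed FPKM of the genes of each role (10, 14, 5 and 10 genes), a bar for each library, coloured for CTBP2 and grey for EV, with an asterisk on the libraries whose line genes go against their label. The 5 mitochondrial genes summed to 347 to 647 FPKM in CTBP2 libraries, against 913 to 1242 FPKM in EV libraries.

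Summed over all 40 genes, the MM.1S-type CTBP2 libraries held 3717 and 4587 FPKM, against 5651 and 6480 FPKM in MM.1S-type EV libraries. NCI-H929-type CTBP2 libraries held 4169 and 3291 FPKM, against 8273 and 7080 FPKM in EV. The 4 CTBP2 libraries were thus below the 4 EV libraries. Total FPKM over all genes was lower with CTBP2 as well, at 459733 to 544210 against 547097 to 659837. The fits were therefore repeated with each library brought to an equal total, counted without CTBP2 and 4 genes named IGJ or IGLL. The most abundant feature stayed in that total, MIR6723, or MIR4461 in NCI-H929 EV replicate 2. It held 15.0 to 16.3% of FPKM in MM.1S-type libraries. In NCI-H929-type libraries it held 3.69% and 11.8% with CTBP2, against 2.86% and 8.30% with EV. Its part in the scaling was not tested. Equal totals moved the median log2 fold change of all genes to 0.27, and that of the 40 to -0.43. Under equal totals 1 member fell with the line as labelled, AHSA1, against 0.453% of all genes called lower. Without the 2 CTBP2 replicate 2 libraries 18 fell, against 6.12% of all genes, and with the line read 21 fell, against 6.90% of all genes. No member rose in any of them, while over all genes 3761 rose and 868 fell with the line read. By role, 5 of 10 HSP90 machine genes, 3 of 14 of the HSP70 and DNAJ system, 4 of 5 mitochondrial genes and 9 of 10 of the CCT ring and prefoldin fell under equal totals with the line read. HSPD1, HSPE1, HSP90AA1, FKBP4 and TRAP1 were among them, at -1.06, -0.88, -0.71, -0.80 and -0.79, and DNAJA3 and CCT3 were the mitochondrial and ring genes that no longer passed (adjusted p = 0.0612 by limma and 0.0919).

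**Figure D3:**
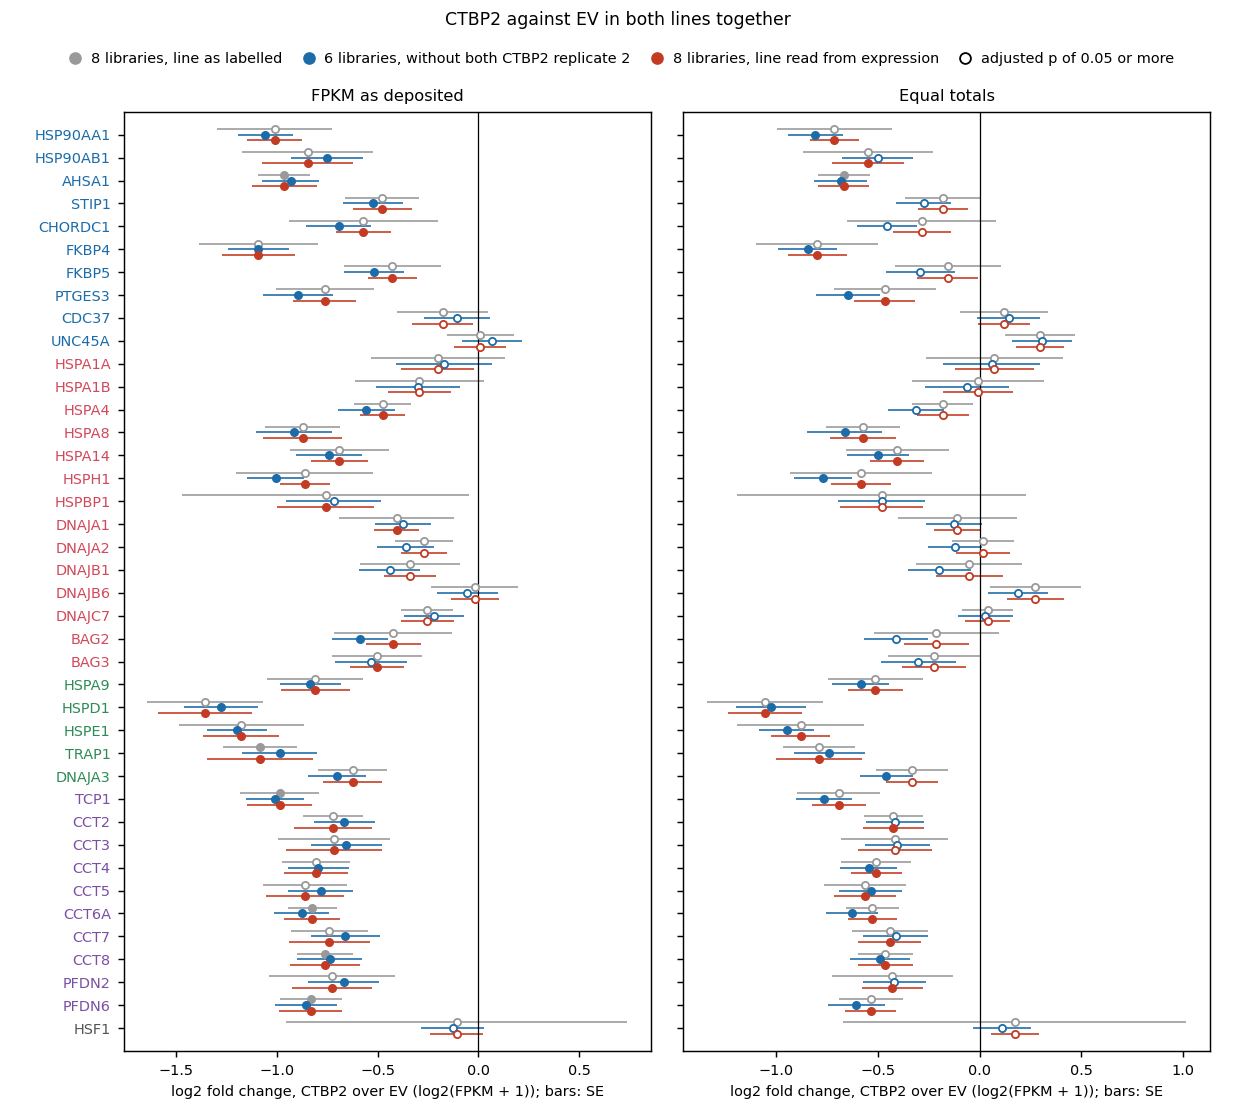
Log2 fold change of CTBP2 over EV on log2(FPKM + 1) with its SE as a bar, for the 40 genes in the same order and name colours, from the fits with the line as labelled (grey), without the 2 CTBP2 replicate 2 libraries (blue) and with the line read from expression (red), as deposited on the left and under equal totals on the right. Filled points passed at an adjusted p under 0.05: on the left 6, 28 and 31 genes, all below 0, and on the right 1, 18 and 21.

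Single libraries mattered most with the line as labelled. None of the 40 passed without either MM.1S EV library, either NCI-H929 EV library or either CTBP2 replicate 1 library. With CTBP2 replicate 2 under the MM.1S label left out 3 passed, and with CTBP2 replicate 2 under the NCI-H929 label left out 14 passed. With the line read, 20 to 31 members passed when any 1 library was left out, and without the 2 CTBP2 replicate 2 libraries 16 to 27 did when an EV library was also left out. The fewest, 20, passed without the MM.1S CTBP2 replicate 1 library and 16 without MM.1S EV replicate 2. With no filter on low values 15 members passed with the line read, and 3 without the 2 CTBP2 replicate 2 libraries. These leave-one-out and no-filter counts are of members alone, so they do not compare the members with all genes.

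The second comparison asked whether CTBP2 acted differently on these genes in the 2 lines, as NCI-H929 minus MM.1S. None of the 40 passed in any of the 3 fits, and 1.26% of all genes did with the line read. At an unadjusted p under 0.05 there were 3 members with the line as labelled, 1 without the 2 CTBP2 replicate 2 libraries and 0 with the line read. Over all genes the shares at that threshold were 7.25%, 13.0% and 15.4%, so the 3 of 40 are near the background and the 1 and the 0 below it. The 3 with the smallest p as labelled were HSPA1A, HSPA1B and DNAJB1, where NCI-H929 minus MM.1S was 1.41 (SE 0.43), 1.29 (SE 0.44) and 0.92 (SE 0.37) on the log2 scale as labelled, each with an adjusted limma p of 0.497. Reading the line from expression, the differences were 0.67 (SE 0.30), 0.54 (SE 0.27) and 0.47 (SE 0.21), with adjusted limma p values of 0.332, 0.381 and 0.351. HSPE1 had the smallest p with the line read, at -0.71 (SE 0.31, adjusted p = 0.329 by limma), but it stood at 0.68 as labelled, so its sign depended on the line given to those libraries. In a fit added after seeing the data, with the line read and a replicate block within each line, HSPA1A passed at 0.67 (SE 0.16, adjusted p = 0.0499 by limma), as did 8.50% of all genes, a larger share than 1 of 40. At an unadjusted p under 0.05 that added fit held 19 of the 40, 15 of them below 0. Over all genes it held 3462 of 12583, 1566 of them below 0, a smaller share. A difference that misses the threshold with 2 libraries a group does not show that the lines respond alike.

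As a description, the share of EV FPKM left with CTBP2 was lower in NCI-H929-type than in MM.1S-type libraries for 34 of the 40 genes. The median was 51.6% in NCI-H929-type libraries, from 30.5% for HSPD1 to 109.4% for HSPA1A. It was 69.5% in MM.1S-type libraries, from 50.8% for HSPD1 to 106.2% for HSF1. All 5 mitochondrial and all 10 CCT ring and prefoldin genes were among the 34, and HSPA1A, HSPA1B, DNAJB1 and BAG3 were among the 6 on the other side. The median difference over the 40 was -0.34 on the log2 scale with the line read, against 0.02 over all genes, and -0.13 against 0.19 under equal totals. CTBP2 itself was at 5884 and 3427 FPKM in NCI-H929-type CTBP2 libraries, against 2145 and 1621 FPKM in MM.1S-type CTBP2 libraries, so the line and the level of CTBP2 cannot be told apart.

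**Figure D4:**
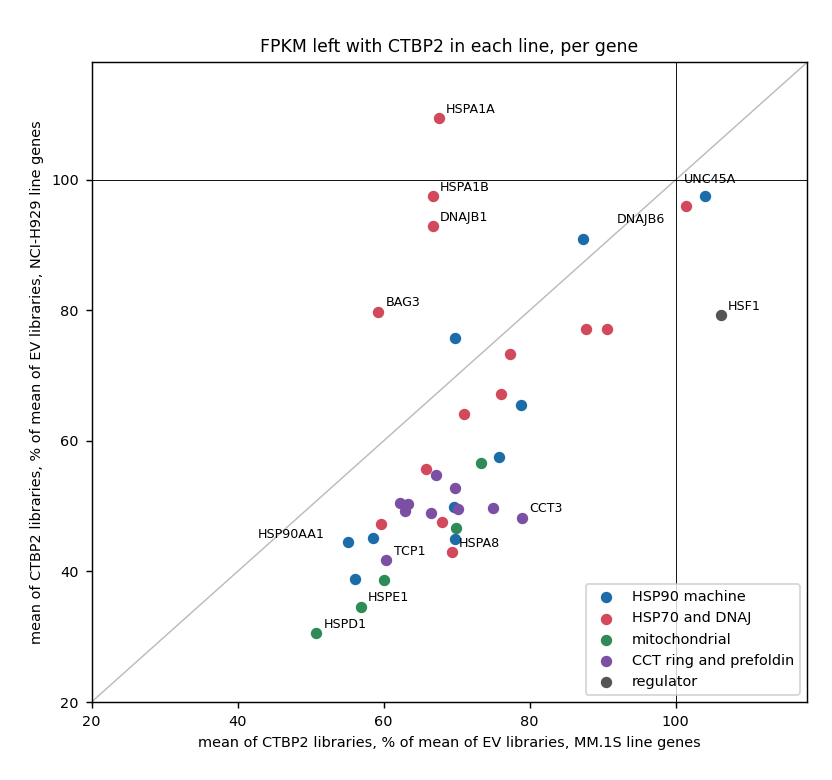
Mean FPKM of the CTBP2 libraries as a percent of the mean FPKM of the EV libraries, for each of the 40 genes (points, coloured by role), in MM.1S-type libraries on the x axis and NCI-H929-type libraries on the y axis; the diagonal marks equal percents. Points for 34 genes lie below the diagonal, with HSPD1 lowest on both axes and HSPA1A, HSPA1B, DNAJB1 and BAG3 above the diagonal.

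The third comparison was of the lines without CTBP2, NCI-H929 EV against MM.1S EV, with 2 libraries each. Of the 40 genes 18 passed, 8 higher and 10 lower in NCI-H929, a share below the 54.5% of all genes called in this comparison. HSF1 had 14.01 and 12.9 FPKM in NCI-H929 EV libraries against 61.04 and 77.2 FPKM in MM.1S EV libraries, and its log2 fold change there was -2.27 (SE 0.17, adjusted p = 8.4e-05 by limma). CHORDC1 had 40.2 and 36.00 FPKM in NCI-H929 against 13.3 and 16.4 FPKM in MM.1S (1.31, adjusted p = 0.000806 by limma). DNAJB1 had 27.6 and 29.3 FPKM in NCI-H929 against 54.1 and 57.03 FPKM in MM.1S (-0.94, adjusted p = 0.00191 by limma). The regulator and the inducible HSP70 partner were thus lower in NCI-H929, and the HSP90 co-chaperone higher. The other genes lower in NCI-H929 were HSPBP1, HSPA1A, HSPA1B, HSPH1, DNAJA1, DNAJB6, BAG2 and FKBP5, at -1.60, -1.17, -1.12, -0.77, -0.72, -0.54, -0.66 and -0.62. With HSF1 and DNAJB1 left aside, all but FKBP5 belong to the HSP70 and DNAJ system, of which 8 of 14 genes were lower and 1, HSPA8 (0.69), was higher. CCT3, PFDN2, HSPA9, HSP90AA1, CCT5 and CDC37 were higher in NCI-H929, at 1.40, 1.30, 1.12, 1.08, 0.91 and 0.65. The count was 8 to 13 with 1 EV library left out, 8 with no filter, and 17 with all 8 libraries and the line read. With all 8 libraries as labelled, where each CTBP2 group mixes the line types, it was 0.

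**Figure D5:**
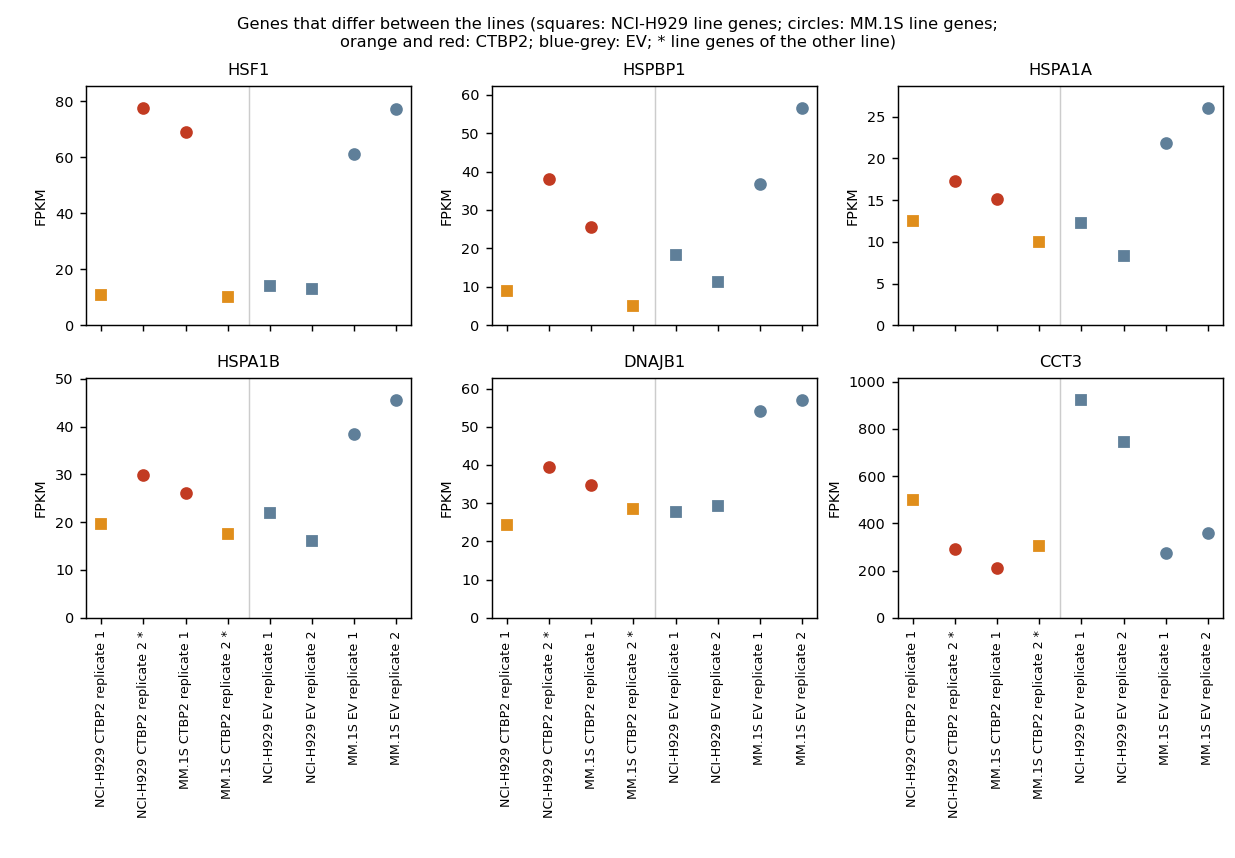
FPKM in each library of 6 genes that passed between the EV libraries of the lines, picked after their values were seen, NCI-H929-type as squares and MM.1S-type as circles, with CTBP2 libraries left of the grey line and EV libraries right of it, ordered by label. HSF1 lies between 10.3 and 14.0 FPKM in the 4 NCI-H929-type libraries and between 61.0 and 77.7 FPKM in the 4 MM.1S-type libraries, whatever the vector.

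Other chaperone genes were read from a list of 55, of which 51 passed the filter and HSPA1L, HSPB8, CRYAB and HSPA12B did not. With the line as labelled 3 fell and none rose (GRPEL1, GRPEL2 and TOMM70A). Without the 2 CTBP2 replicate 2 libraries 14 fell, and 18 fell with the line read, with none rising in either. Those counts were 5.88%, 27.5% and 35.3% of the 51, against 1.81%, 13.0% and 16.7% of all genes called lower. The median log2 fold change of the 51 was -0.30 as labelled, against -0.72 for the 40 and 0.04 for all genes. GRPEL1, the nucleotide exchange factor of mitochondrial HSP70, had 20.7 and 26.9 FPKM in MM.1S-type CTBP2 libraries against 32.8 and 37.4 FPKM in EV, and 21.1 and 17.5 FPKM in NCI-H929-type CTBP2 libraries against 48.02 and 41.3 FPKM in EV (-0.86, adjusted p = 0.0362 by limma). GRPEL2, its relative, had 6.66 and 7.65 FPKM in MM.1S-type CTBP2 libraries against 12.6 and 12.6 FPKM in EV, and 6.94 and 6.57 FPKM in NCI-H929-type CTBP2 libraries against 15.7 and 11.03 FPKM in EV (-0.81, adjusted p = 0.0434 by limma). TOMM70A, an outer membrane receptor that takes precursors from HSP70 and HSP90, had a log2 fold change of -0.66 (adjusted p = 0.0449 by limma). In these 3 genes no CTBP2 library reached an EV library. Under equal totals with the line read 9 fell and 4 rose, against 6.90% of all genes falling and 29.9% rising, so the risers are fewer than the background; those that rose were DNAJB2, a neuronal J-domain protein, BAG6, which guards hydrophobic proteins in the cytosol, and the tubulin folding cofactors TBCB and TBCC, at 0.61, 0.40, 0.37 and 0.65. Those 4 were named after their values were seen, and as deposited they did not pass in any of the 3 fits.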

How the data were processed

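RNA-seq gene levels were analysed from the table of FPKM values that the authors deposited, with 1 column for each of 8 libraries. Per the labels' protocols, libraries were made with a TruSeq RNA kit. Per the submitters' processing notes the tools were STAR 2.6.0b-1 and HTSeq 0.9.1, with Trimmomatic 0.36.5, FastQC 0.11.7 and DESeq2 2.11.40.2, on GRCh37 (hg19). Which tool made the FPKM is not stated. Such values divide by gene length and by the library's fragments, so a few very abundant transcripts lower all others. Low values rose in steps, and each library's depth was chosen as the one that best turned those values into whole reads. At that depth 56.1 to 67.2% of them were whole within 0.1, too few to recover counts, so depths are estimates. A share of 20% is the chance level for a depth fixed beforehand, not for one chosen from the same values.

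From these values, log2(FPKM + 1) was fitted with limma 3.58.1 in R 4.3.3 (variance trend, line and vector terms) over the 12583 genes that reached 1 FPKM in 2 or more libraries, and p-values were adjusted by Benjamini-Hochberg over all of them at 0.05. The lines' difference in the CTBP2 effect was the interaction term, and NCI-H929 EV was compared with MM.1S EV in the 4 EV libraries alone. Only the fit of CTBP2 against EV with the line read was run on simulated data, with independent noise. The labelled fit and the other comparisons were not. Fold changes on this scale understate those of low genes. In CTBP2 against EV, p-values rest on the spread around the line and vector terms. That spread holds the differences between duplicates, which may be technical, and any difference between lines in the CTBP2 effect. In the other comparisons they measure the spread between duplicates. As labelled, each CTBP2 pair also mixes the line types, which widens the spread. Values in every library are given for the 4 genes of each role with the smallest p as labelled and for a fixed set of 9 well-known members, and the 3 with the smallest p for the other comparisons. The members, lists and rules were chosen with earlier results of these data known. Replicate numbers were not taken to pair the samples. With the line read, deviations of same-numbered libraries correlated at 0.435 and 0.452 within a line and at -0.275 to 0.027 across lines. As labelled, the CTBP2 groups mix both lines, so that check says nothing on pairing. Alternatives were another pseudocount, filter, scaling, variance model, replicate block, line assignment and the omission of each library. Promoters were those of RefSeq, matched by Entrez gene identifier.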

Additional observations from a re-analysis of the deposited data

How the results depend on the processing

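With CTBP2 against EV as labelled, 6 members passed in the test as reported. The count was 6 with a pseudocount of 0.1, 8 with a filter of 5 FPKM, 9 with median-of-ratios scaling, 6 with no variance trend and 6 when a log2 fold change of at least 0.5 was also asked for. It was 3 with no filter, 2 with quantile normalization, 1 with equal totals and 0 with the replicate block, and 0 to 14 when 1 library was left out. Without the 2 CTBP2 replicate 2 libraries it was 28, with equal totals 18, with no filter 3, with quantile normalization 23, and 16 to 27 when 1 EV library was also left out. With the line read from expression it was 31, with equal totals 21, with quantile normalization 25, with no filter 15, with median-of-ratios scaling 27, with the replicate block 28, with a replicate block within each line 31, and 20 to 31 when 1 library was left out. The fits without the 2 libraries under no filter or quantile normalization, and those with the line read under no filter, median-of-ratios scaling or a block within each line, were chosen after seeing the data. The 18 members that passed between the EV libraries were 8 with no filter, 0 with all 8 libraries as labelled, 17 with all 8 and the line read, 15 with the replicate block and 8 to 13 when 1 library was left out. Whether the replicate numbers pair the libraries within a line is not known, so the loss of all 6 labelled calls under the replicate block is not read either way. The counts in this paragraph are of members alone and are not set against the share of all genes in the same fit.

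For the difference between lines 0 members passed as reported and 1, HSPA1A, with the line read and a replicate block within each line.

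Signs turned as follows, and the cause was not tested. Under equal totals, as labelled and with the line read, CDC37 was at 0.12, HSPA1A at 0.073, DNAJA2 at 0.016, DNAJB6 at 0.27, DNAJC7 at 0.040 and HSF1 at 0.17. Without the 2 CTBP2 replicate 2 libraries and with equal totals, CDC37 was at 0.14, HSPA1A at 0.060, DNAJB6 at 0.19, DNAJC7 at 0.028 and HSF1 at 0.11. Under quantile normalization, as labelled and with the line read, CDC37 was at 0.13, DNAJB6 at 0.21, DNAJC7 at 0.015 and HSF1 at 0.035. Under quantile normalization without the 2 libraries, CDC37 was at 0.18, DNAJB6 at 0.20, DNAJC7 at 0.050 and HSF1 at 0.064. DNAJB6 was at 0.058 under median-of-ratios scaling, as labelled and with the line read. When 1 library was left out, over the 3 ways of treating the line, CDC37 ranged from -0.32 to 0.013, UNC45A from -0.089 to 0.13, HSPA1A from -0.44 to 0.051, DNAJB6 from -0.19 to 0.13 and HSF1 from -0.89 to 0.66. For the difference between lines HSPE1, at 0.68 as labelled, was at -0.29 without the 2 CTBP2 replicate 2 libraries, with or without the filter (-0.23 with equal totals, -0.30 with quantile normalization). It was at -0.71 with the line read, likewise with median-of-ratios scaling, no filter or either replicate block (-0.49 with equal totals, -0.56 with quantile normalization), and ranged from -0.93 to 1.18 when 1 library was left out.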
